A study of Arabidopsis thaliana with 12 samples.

Results

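The nuclear-encoded membrane proteins of photosystem II and its antenna were followed here through 4 genes, PSBW, PSBY, LHB1B2 and AT1G54500, which encodes a rubredoxin-like protein. They were picked by name and not by a search of all genes of that function. Each was required to have a probe that the platform annotation lists with exactly 1 gene. AT1G54500 is counted below among the assembly and repair genes of photosystem II. Each had 1 such probe, so no choice between probes was needed, and they make up 4 of 691 genes measured in this way on an array of 3439 probes. Total RNA came from plants of wild-type Arabidopsis thaliana, ecotype Columbia 0. One group of 6 samples was grown at a normal CO2 level and carries day 0 in its titles. The other 6 samples were taken on day 2, after a last 48 h in 0.003% CO2 by volume, so that CO2 and the time between the groups cannot be told apart. The labels name no tissue, age or number of plants per sample. Separate plants or cultures are not stated for the 6 samples per group, so p-values cover the spread among these samples alone, which may be of a technical kind.

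Photosystem II is the pigment-protein complex of the thylakoid membrane that uses light to take electrons from water. Around its reaction centre sit small membrane-spanning subunits, and outside them an antenna of chlorophyll a/b proteins that collects light. With little CO2 to fix, a leaf in the light has fewer sinks for these electrons, and the size of the antenna and the assembly and repair of the reaction centre are known points of adjustment. PSBW is a small nuclear-encoded subunit that helps to hold photosystem II and its antenna together in supercomplexes. PSBY is another small subunit, made in Arabidopsis from a precursor that holds more than 1 copy, and lies beside the cytochrome b559 of the reaction centre. LHB1B2 belongs to the LHCB1 family, the major proteins of the light-harvesting antenna. AT1G54500 is a membrane-anchored iron protein of the thylakoid, and rubredoxins of this kind are known from cyanobacteria and green algae to be needed for photosystem II assembly.

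The groups of arrays differed in their overall distribution, which touches every value below. Array medians of deposited intensity were 0.489 to 0.576 at normal CO2 and 0.343 to 0.373 at low CO2, while array means lay between 0.993 and 1.0997. Fold changes were therefore taken after quantile normalization, which makes the distribution of the 3439 probes equal on every array, and are relative to it. Replicates 1 and 2, 3 and 4, and 5 and 6 were closest to each other in both groups, as measured by deviations from the group mean over all probes. A group therefore holds fewer than 6 independent samples, and p-values from 6 against 6 are likely too small. Every member was also tested with these adjacent pairs averaged, 3 against 3. Of all probes, 18.0% passed in that fit, and 29.3% with the pairs as a random block. In tissue RNA, fewer cells of a type and less transcript per cell cannot be told apart. Neither the 3 root nor the 3 seed marker genes looked for had a probe of their own, so the tissue could not be checked.

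At low CO2 the transcript of PSBW was higher, those of LHB1B2 and AT1G54500 were lower, and PSBY was higher by a small margin. The directions were the same under all settings run, while the sizes and calls of all 4 depended on the processing, as given for each below. The transcripts of PSBW and of the antenna gene LHB1B2 thus went in opposite directions. All 4 members passed the test of 6 against 6, 2 upward and 2 downward, by limma with Benjamini-Hochberg adjustment over all probes and a threshold of 0.05. In that test 42.4% of all probes passed, 18.9% higher and 23.5% lower, so that a change is the state of many probes on this array and 4 of 4 is to be read against it. In the distribution of all fold changes PSBW stood at percentile 80.3, PSBY at 68.1, AT1G54500 at 22.8 and LHB1B2 at 20.7.

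**Figure D1:**
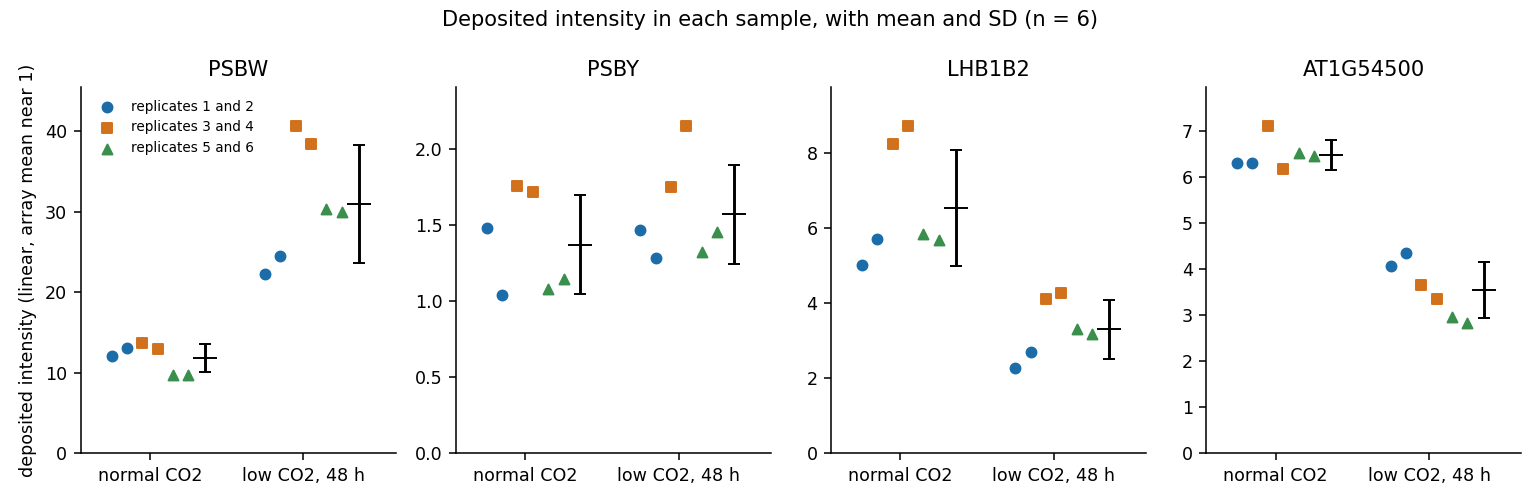
Deposited intensity (linear, vertical axis) of each member in the 6 normal and 6 low CO2 samples, with colour and shape for adjacent replicate numbers and black bars for mean ± SD (n = 6). PSBW at low CO2 lies above every normal sample, LHB1B2 and AT1G54500 lie below, and the groups of PSBY overlap.

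PSBW, the supercomplex subunit, was among the brightest probes. Its deposited intensity in normal CO2 replicates 1 to 6 was 12.03, 13.1, 13.7, 12.9, 9.67 and 9.68. In low CO2 replicates 1 to 6 it was 22.2, 24.4, 40.6, 38.4, 30.4 and 30.0. Every low CO2 sample was higher than every normal one, and samples of adjacent number lay close together, with replicate 3 highest in both groups, replicates 5 and 6 lowest at normal CO2 and replicates 1 and 2 lowest at low CO2. The mean went from 11.8 ± 1.75 to 31.0 ± 7.33 (SD, n = 6 each), 2.62 times as high. By rank on its array, the probe moved from between the 19th and the 26th brightest of 3439 to between the 8th and the 17th. Of all probes, 7.24% were higher without overlap on the deposited scale.

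After normalization PSBW rose by 0.97 ± 0.19 on the log2 scale (SE, limma adjusted p = 0.00178), a 1.96-fold change. On the deposited scale, with no normalization, its log2 fold change was 1.37 ± 0.18 (limma adjusted p = 7.26e-05), and with arrays scaled to a common median it was 1.90 ± 0.21 (adjusted p = 3.37e-05). Under these scalings 48.7% and 41.5% of all probes passed. The size of the rise thus depended on the scaling, while its direction did not. The difference between low and normal CO2 samples of the same number was 0.46 and 0.27 for replicates 1 and 2 and between 1.06 and 1.45 for the other 4, upward in 6 of 6. With adjacent pairs averaged the rise had the same size and did not pass (SE 0.30, limma adjusted p = 0.0775). Without replicates 5 and 6 of both groups it was 0.85 and did not pass either (adjusted p = 0.0581).

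PSBY, the subunit beside cytochrome b559, changed least. In normal CO2 replicates 1 to 6 its deposited intensity was 1.48, 1.04, 1.76, 1.72, 1.08 and 1.15. In low CO2 replicates 1 to 6 it was 1.47, 1.28, 1.75, 2.15, 1.32 and 1.45. The groups overlapped widely, and replicates 3 and 4 were the highest of both. The means were 1.37 ± 0.324 and 1.57 ± 0.327 (SD, n = 6 each).

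Relative to the other probes PSBY rose by 0.46 ± 0.17 on the log2 scale (limma adjusted p = 0.0474), and the normalized values overlapped as well. Differences between samples of the same number were positive in 6 of 6, from 0.18 to 0.68. The call was fragile. On the deposited scale the log2 fold change was 0.21 ± 0.19 (adjusted p = 0.386), with adjacent pairs averaged it was 0.46 ± 0.26 (adjusted p = 0.253), and with pairs as a random block adjusted p was 0.138. Of the 12 fits that left out 1 sample, 3 passed, those without normal CO2 replicate 3 (0.54, adjusted p = 0.0275) or 4 (0.54, adjusted p = 0.0311) or low CO2 replicate 2 (0.51, adjusted p = 0.0467). In the other 9 the value was 0.39 to 0.50, with adjusted p from 0.0514 to 0.0965.

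LHB1B2, the antenna gene, was close to 2-fold lower at low CO2. Deposited intensity in normal CO2 replicates 1 to 6 was 5.02, 5.72, 8.24, 8.71, 5.84 and 5.69. In low CO2 replicates 1 to 6 it was 2.26, 2.70, 4.12, 4.27, 3.31 and 3.18. The groups did not overlap, and replicates 3 and 4 were again the highest of both. The mean went from 6.54 ± 1.54 to 3.31 ± 0.783 (SD, n = 6 each), 0.506 times as high. Of all probes, 27.3% were lower without overlap on the deposited scale, so the lack of overlap is common in this direction.

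After normalization LHB1B2 was at -0.97 ± 0.19 on the log2 scale (SE, limma adjusted p = 0.00178), close in size to the rise of PSBW. This likeness in size depended on the scaling. On the deposited scale PSBW was at 1.37 and LHB1B2 at -0.99. Much of the spread was shared by samples of the same number. Taken number by number, the 6 differences lay between -1.09 and -0.87, and with the replicate number as a block the SE was 0.08 instead of 0.19 (limma adjusted p = 0.000442, in a fit where 45.9% of all probes passed). The block fit counts the 6 numbers as independent, although samples of adjacent number were alike, so its SE and p are likely too small. With adjacent pairs averaged the change did not pass (adjusted p = 0.0802), and with arrays scaled to a common median it was -0.46 ± 0.22 (adjusted p = 0.123). The LHCB1 genes are close paralogs, and how far the probe also reports the others was not tested.

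AT1G54500, the rubredoxin-like gene, had the smallest SD within each group on the normalized log2 scale, 0.10 at normal and 0.21 at low CO2. Deposited intensity in normal CO2 replicates 1 to 6 was 6.31, 6.32, 7.11, 6.19, 6.54 and 6.46. In low CO2 replicates 1 to 6 it was 4.08, 4.36, 3.66, 3.36, 2.95 and 2.84. The groups did not overlap, as was the case in this direction for 27.3% of all probes on the deposited scale. At low CO2 replicates 1 and 2 were the highest, unlike in the other members. The mean went from 6.49 ± 0.327 to 3.54 ± 0.608 (SD, n = 6 each), 0.546 times as high.

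AT1G54500 fell by 0.90 ± 0.12 on the normalized log2 scale (SE, limma adjusted p = 0.000105). It was the member that passed with adjacent pairs averaged (SE 0.21, limma adjusted p = 0.0413). Differences between samples of the same number were negative in 6 of 6, at -0.60 and -0.58 for replicates 1 and 2 and from -1.23 to -0.88 for the others. With pairs averaged and their number as a block it did not pass (adjusted p = 0.0789), in a fit that 10.9% of all probes passed. With arrays scaled to a common median it was at -0.36 ± 0.12 and passed (adjusted p = 0.0385).

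A ratio of 2 probes on 1 array does not change when all values of the array are multiplied by the same factor. The 6 ratios among the members were compared for that reason. A ratio does not remove a difference in the shape of the distribution. Here array medians differed between the groups while array means stayed near 1, so that limit applies. The exact permutation test over the 6 and 6 samples was two-sided, with p adjusted over the 6 ratios. The smallest p it can give is 0.00216. A shift in a ratio shows that 2 probes changed unequally on the deposited scale and not which of them changed. PSBW gained on LHB1B2 by 2.36 ± 0.12 on the log2 scale (SE), a 5.12-fold change in the ratio. In the low CO2 samples this ratio was nearly constant on the deposited scale, with log2 values between 3.17 and 3.30, although both intensities varied between adjacent pairs. How many other pairs of probes were as constant was not tested. At normal CO2 the ratio of PSBW to LHB1B2 lay between 0.57 and 1.26.

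PSBW gained on AT1G54500 by 2.26 ± 0.23, or 4.79-fold, and on PSBY by 1.16 ± 0.15, or 2.24-fold. PSBY in turn gained on LHB1B2 by 1.19 ± 0.14 and on AT1G54500 by 1.09 ± 0.21, 2.28-fold and 2.13-fold. In each of these 5 ratios the groups did not overlap, all 6 numbers gave the same direction and the exact permutation p was 0.00216, or 0.00260 after adjustment. Of all pairs of probes on the array, 23.8% had ratios without overlap between the groups. The next shares are on the deposited scale too, where the unlike shape of the distributions enters. Against the other 3438 probes taken singly, PSBW gained on 57.4% without overlap, PSBY on 28.7%, AT1G54500 on 6.40% and LHB1B2 on 3.96%. The 4 members lost against 0.669%, 3.84%, 20.01% and 19.7% of the probes, in that order.

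LHB1B2 and AT1G54500 showed no detectable difference in their fall. Their log2 ratio had a mean of -0.02 ± 0.31 in the normal CO2 samples and -0.12 ± 0.51 in the low CO2 ones (SD, n = 6 each). The difference was -0.10 ± 0.24 (SE, exact permutation p = 0.665), and leaving out 1 sample moved it between -0.19 and 0.05. A difference of the size of this SE could not be seen with this spread. The low CO2 values split by number, at -0.85 and -0.69 in replicates 1 and 2 and between 0.17 and 0.35 in the other 4.

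With adjacent pairs averaged, 3 against 3 cannot give an exact p under 0.1, so this setting tests none of the ratios. With the replicate number as a block, the exact sign-flip permutation test of 6 differences gave 0.5625 for LHB1B2 to AT1G54500. That test counts the 6 numbers as independent, although samples of adjacent number were alike, so its small p-values are likely too small. For each of the other ratios the exact sign-flip permutation test gave 0.0312, its smallest value. The sizes of these shifts were sensitive to the scale, that of PSBW to PSBY most. Between quantile normalized values it was 0.51 in place of 1.16 (exact permutation p adjusted over the 6 ratios = 0.0364). PSBW then gained on LHB1B2 by 1.94 in place of 2.36, and on AT1G54500 by 1.87 in place of 2.26. The gains of PSBY on LHB1B2 and AT1G54500 were larger there, at 1.43 and 1.37 in place of 1.19 and 1.09.

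**Figure D2:**
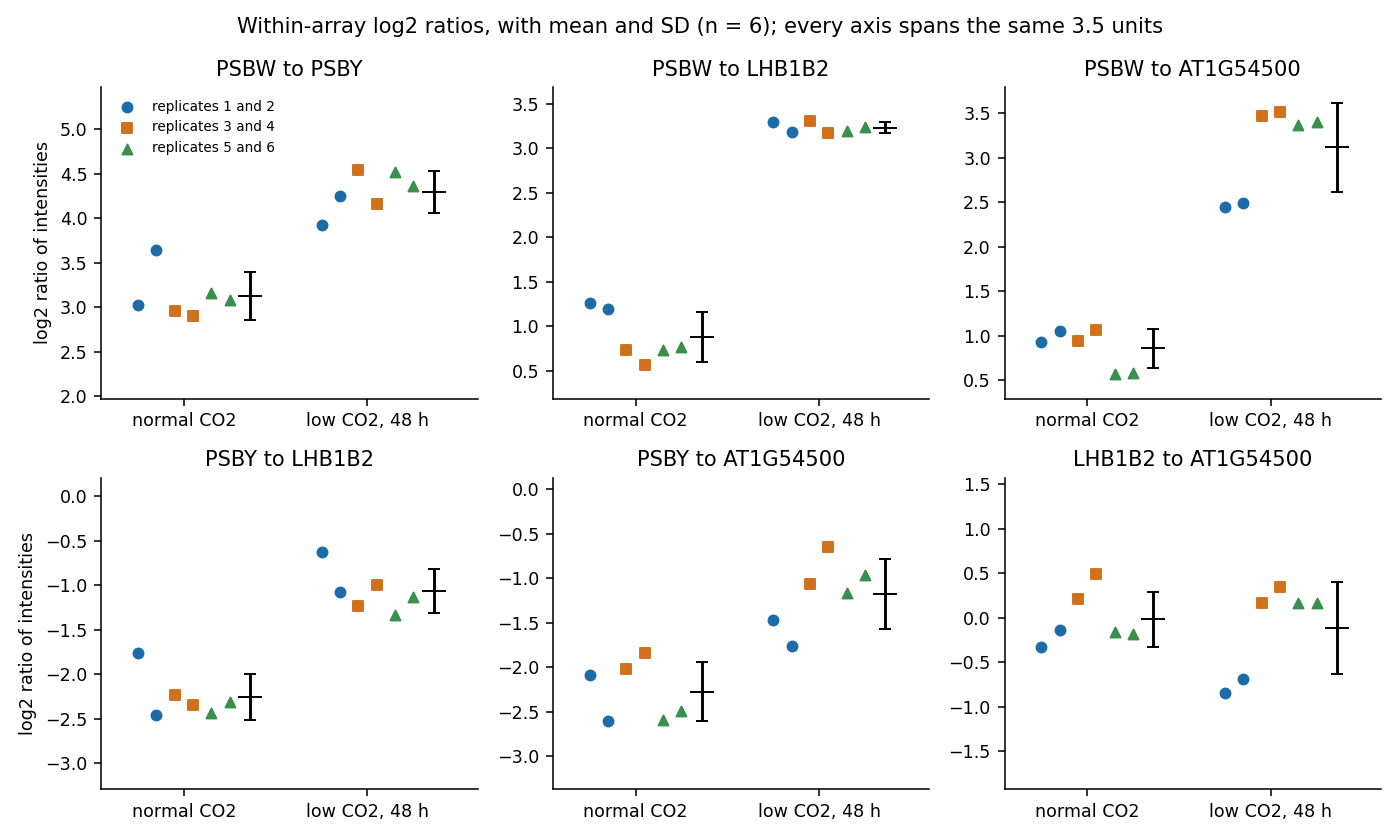
Log2 ratio of the deposited intensities of 2 members on the same array (vertical axis), for the 6 ratios, with colour and shape for adjacent replicate numbers and black bars for mean ± SD (n = 6). The groups are apart in every ratio except that of LHB1B2 to AT1G54500, and the PSBW to LHB1B2 ratio at low CO2 lies between 3.17 and 3.30 in all 6 samples.

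Fold changes were also compared by probe number, in a repeat along the numbering that was divided into 48 places of 6 numbers each. Medians are given for the places of the members only. Whether fold changes follow the place over all 48 was not tested. PSBW, LHB1B2 and AT1G54500 lay at the same place of the repeat. The 70 probes there had a median log2 fold change of -0.68, against -0.05 for all probes, with 6 called higher and 30 lower. LHB1B2 and AT1G54500 were thus close to the median of their place, while PSBW was 1 of the 6 called higher. PSBY lay at another place, where the median of 72 probes was -0.60.

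With the median deviation of each place taken off in every sample, the upward changes grew and the downward ones shrank. PSBW was then at 1.52 ± 0.17 and PSBY at 0.99 ± 0.12 (limma adjusted p = 4.74e-05 and 6.47e-05), and both passed with adjacent pairs averaged as well (adjusted p = 0.0232 and 0.0175). LHB1B2 was at -0.41 ± 0.14 (adjusted p = 0.0373), or 0.247 with pairs averaged. AT1G54500 was at -0.35 ± 0.14 and did not pass (adjusted p = 0.0712). In that fit 37.5% of all probes passed, and 13.2% with pairs averaged as well. The ratios of PSBW to LHB1B2 and to AT1G54500 cannot be altered by this step, since these probes share their place. Whether the place stands for a position on the array was not tested.

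**Figure D3:**
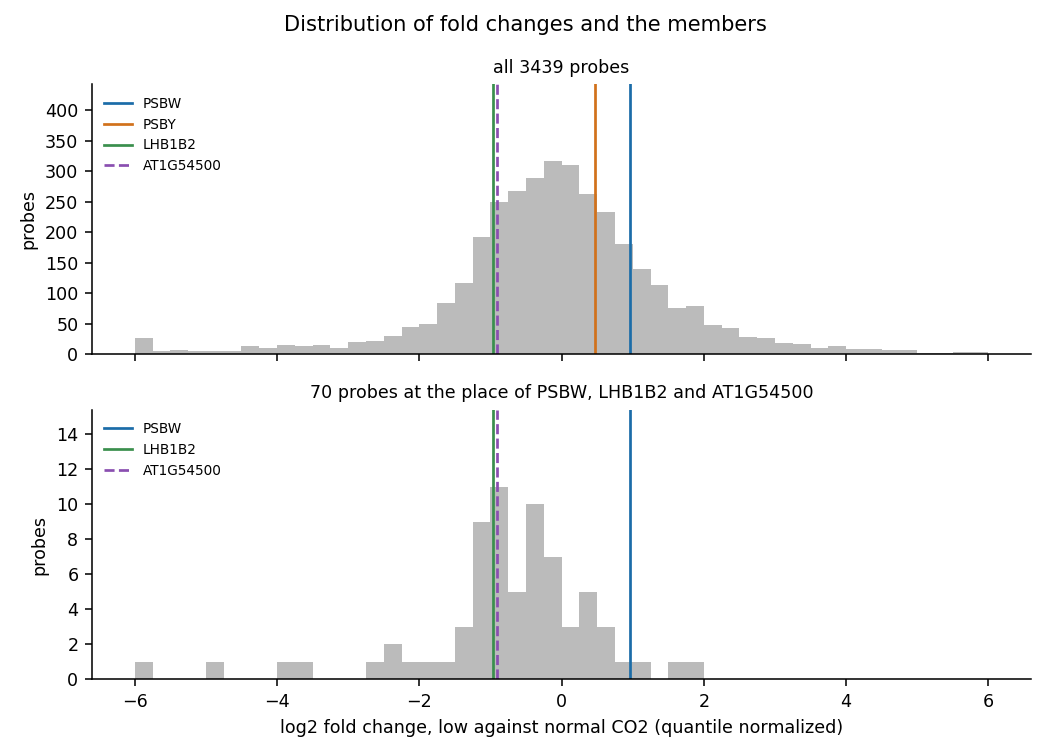
Number of probes (vertical axis) by log2 fold change at low against normal CO2 (horizontal axis, bars 0.25 wide, values beyond 6 in the end bars), for all 3439 probes and for the 70 at the place shared by PSBW, LHB1B2 and AT1G54500. Coloured lines mark the members, and PSBW at 0.97 stands on the high side of both distributions.

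**Figure D4:**
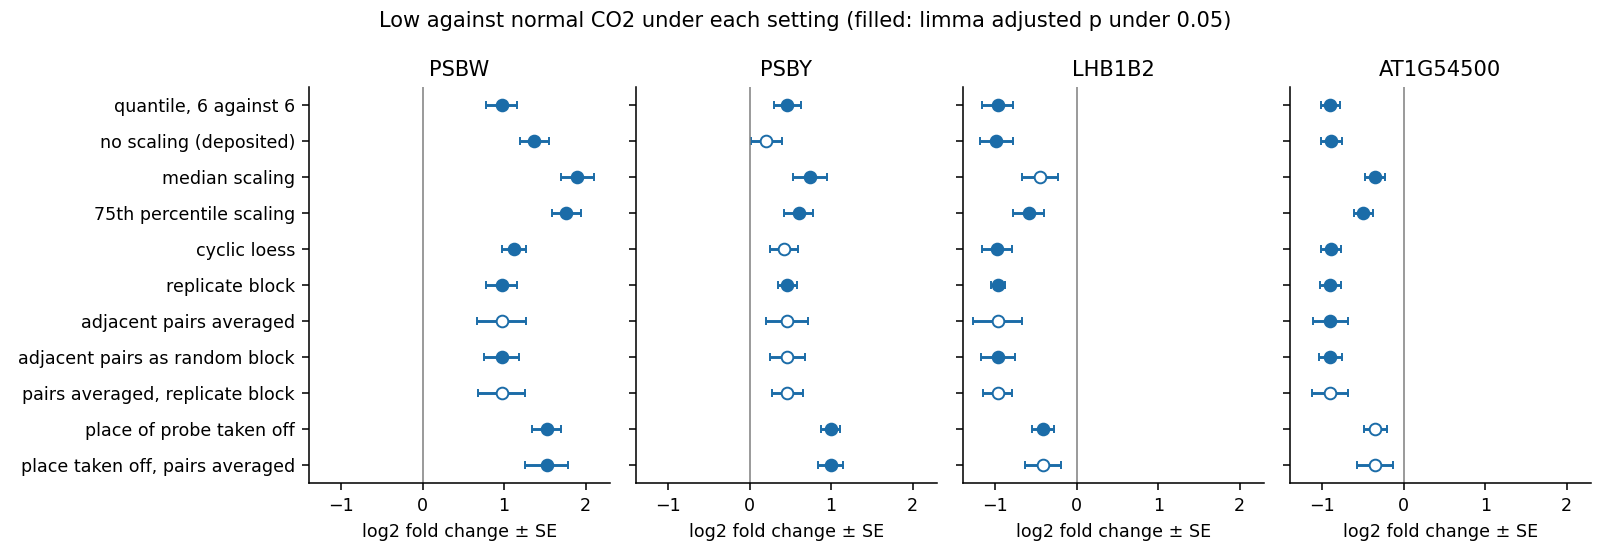
Log2 fold change at low against normal CO2 (horizontal axis, bars ± SE) of each member under 11 settings, filled where limma adjusted p was under 0.05. The direction is the same in every setting shown, the number of filled points is lowest for PSBY, and the 2 lower members move towards 0 with median scaling and with the place taken off.

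Other genes of the light reactions were thinly covered. Of 80 genes in lists of photosystem II subunits, its assembly and repair, antenna, photosystem I and electron carriers, 7 had a probe of 1 gene, the 4 members among them, and 8 lay only on probes listed with several genes. Both measured genes of 12 in the photosystem II subunit list were PSBW and PSBY, and LHB1B2 stood for an antenna list of 23. Of 3 measured assembly and repair genes of 19, LPA19 and AT1G54500 fell and PSB27 did not pass. LPA19, which acts in the maturation of the reaction centre protein D1, was at -1.38 ± 0.12 on the log2 scale (limma adjusted p = 8.67e-06, and 0.0149 with pairs averaged). Taking off the place of its probe in the repeat left -0.65 ± 0.14 (adjusted p = 0.00372), which missed the threshold once pairs were averaged as well (adjusted p = 0.0803). Its deposited intensity was 1.38 to 1.80 at normal and 0.345 to 0.547 at low CO2. PSB27, a lumenal assembly factor, was at 0.41 ± 0.56 (adjusted p = 0.590), with intensities of 0.330 to 2.68 and 0.734 to 2.52. Its lowest values were in replicates 3 and 4 of both groups, and its log2 fold change was -0.02 without normal CO2 replicate 4 and 0.03 without numbers 3 and 4. PSAN, for a lumenal subunit of photosystem I, had a log2 fold change of -0.19 ± 0.32 (adjusted p = 0.662), with intensities of 1.91 to 5.003 and 1.49 to 3.87. It was above 0 under other settings, at 0.31 with median scaling and 0.41 with the place taken off, and passed in none. The SEs of these 2 genes were larger than those of the members, and a change as large as those of the members could be missed in them. Over the 7 genes 2 rose, 3 fell and 2 did not pass, with a median of -0.19 against -0.05 for all probes, of which 18.9% rose and 23.5% fell. With pairs averaged, LPA19 and AT1G54500 passed, and with the place taken off as well, PSBW and PSBY did.

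The genes with the most similar profiles were looked for among 564 other genes with a probe of their own and no value of 0, by the root mean square distance of log2 profiles over the 12 samples, each centred on its mean. For PSBW, whose own values spread by 0.57 around their mean, these were AT5G56070 at a distance of 0.18 and AT1G01730 at 0.27. PSBY, with a spread of 0.34, was nearest to AT5G64150 at 0.19 and AT2G18920 at 0.20. LHB1B2, with 0.57, was nearest to AT1G21660 at 0.16 and AT2G35450 at 0.17. AT1G54500, with 0.48, was nearest to AT1G34270 at 0.18 and AT3G58610, which encodes ketol-acid reductoisomerase of branched-chain amino acid synthesis, at 0.22. No member was among the 2 nearest genes of another. The distances measure likeness in these samples, including the difference between the groups.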

How the data were processed

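Values were the deposited intensity of 3439 probes in 12 samples, linear, with array means near 1. 5.55% of them were 0, none in the members. The scanner and the authors' background correction and scaling: not given in the sources used here. Groups and replicate numbers came from the sample titles. Genes were named from the platform annotation (692 probes of 1 gene, 870 of several, 1877 unlisted), 690 of the 692 matched to TAIR10.1 for names only. No coordinates are printed, since no source names the array's build.

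Values of 0 were set to the array's smallest positive value, log2 taken and arrays quantile normalized, since medians differed by over 5%. limma 3.58.1 in R 4.3.3 compared 6 with 6 over all probes. Exact permutation tests used scipy 1.17.1. limma was tested on simulated data and the permutation tests on values with a known answer. Alternatives were other scalings, a replicate block, adjacent samples averaged or as a random block, dim probes left out, a pseudocount of 0.0493, another prior variance, the place of the probe taken off and samples left out. Named were the members, every measured gene of the lists and the 2 nearest genes of each member. Members, lists and tests were chosen with earlier results of these data known.

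Deviations of same-numbered samples from their group means correlated at 0.128 to 0.214 in the 6 pairs. For all 12 samples, the most correlated sample of the other group was the one of the same number. The numbers, given in the titles, were therefore used as a block, and what they stand for is not stated.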

Additional observations from a re-analysis of the deposited data

Results flagged for a closer look

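Of 42 sets of 6 values tested for a sample far from the others of its group, 2 were picked out, where chance gives about 2.1. The log2 ratio of PSBW to PSBY in normal CO2 replicate 2 was 3.65, while the other 5 samples lay between 2.91 and 3.16, and the gap made up 0.658 of the whole range. The log2 ratio of PSBY to LHB1B2 in normal CO2 replicate 1 was -1.76, the others lying between -2.46 and -2.23, and the gap made up 0.672. Both involve PSBY at normal CO2, where replicates 1 and 2 had intensities of 1.48 and 1.04, and both samples lay on the side of the low CO2 group.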

How the results depend on the processing

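The direction of each member was the same under all 17 other settings and 12 fits without 1 sample. The count of 1457 changed probes fell to 618 with adjacent pairs averaged and to 375 with a replicate block as well. It was 454 with pairs averaged and the place taken off, and fewer samples entered each of these fits. With pairs as a random block, a fit of all 12 samples, the count was 1006. The replicate block on 6 against 6 gave 1578 and changed no call of a member. Pairs averaged left PSBW at 0.97 (limma adjusted p = 0.0775), PSBY at 0.46 (0.253) and LHB1B2 at -0.97 (0.0802), none of which passed, and with the replicate block as well PSBW (0.97, adjusted p = 0.106), PSBY (0.46, 0.172), LHB1B2 (-0.97, 0.0549) and AT1G54500 (-0.90, 0.0789) did not pass. PSBY also missed the threshold on the deposited scale (0.21), with cyclic loess (0.42, adjusted p = 0.0657), with pairs as a random block (0.46, adjusted p = 0.138), without numbers 1 and 2 (0.51, adjusted p = 0.133), without 5 and 6 (0.36, adjusted p = 0.247) or in 9 of 12 fits without 1 sample (0.39 to 0.54 over the 12, 0.39 to 0.50 over the 9). PSBW did not pass without numbers 5 and 6 (0.85, adjusted p = 0.0581). LHB1B2 did not pass with median scaling (-0.46) or with the place taken off and pairs averaged (-0.41). AT1G54500 missed it with the place taken off (-0.35), and also with pairs averaged (adjusted p = 0.321) or a replicate block (adjusted p = 0.0756, added after seeing the data) on top. The causes were not tested. The median fold change of all probes was -0.60 on the deposited scale and -0.20 with 75th percentile scaling, against -0.05. With pairs averaged the 5 shifted ratios stayed at 1.16, 2.36, 2.26, 1.19 and 1.09, where adjusted exact permutation p was 0.12, the smallest 3 against 3 can give for 5 of 6 ratios. Under the other ratio settings, the added quantile normalized ratio among them, all 5 passed, and that of LHB1B2 to AT1G54500 passed in none. Precision is limited by 12 arrays and their pairwise likeness.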
